A study of Rattus norvegicus with 49 samples.

Results

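Kidneys of rats given propylene glycol phenyl ether (PPH, a glycol ether solvent) at 500 mg/kg were compared with kidneys of rats given the corn oil vehicle alone. The members were chosen by their labels: 3 arrays of kidney at 500 mg/kg and 5 arrays of kidney at 0 mg/kg, which is 8 of the 49 arrays of the series. All animals were male Harlan Sprague Dawley rats, 6 to 8 weeks old when assigned to groups, fed the NTP-2000 diet and dosed by gavage in 5 mL/kg on 5 consecutive days, and they were killed the day after the last dose. The labels give each array as a biological replicate from 1 organ. The series also holds kidneys at 1, 10, 100 and 1000 mg/kg (24 kidney arrays in all) and 25 liver arrays, of which 4 at 500 mg/kg and 5 at 0 mg/kg are used below. The 2000 mg/kg group was dosed but its tissue was not collected. The treatment text of the labels names another chemical (MCHM), while the titles, the compound field and the series title name PPH, which is followed here.

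The kidney filters blood in glomeruli and recovers solutes along a tubule whose first segment, the proximal tubule, fuels itself largely by burning fatty acids in mitochondria and peroxisomes. The proximal tubule also takes up foreign chemicals and joins them to glutathione with glutathione transferases. In a young adult kidney few tubule cells divide, and the transcripts of cell division (cyclins, mitotic kinases, spindle motors) are made mainly in cells between late S phase and the end of mitosis. In whole tissue, fewer cells of a type and less RNA per cell cannot be told apart.

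The labelled organ was checked against its defining markers. Slc34a1, the phosphate carrier of the proximal tubule, averaged 13.66 at 500 mg/kg and 13.66 at 0 mg/kg on the log2 scale used throughout, and Umod, the uromodulin of the thick ascending limb, averaged 13.00 at 500 mg/kg and 12.95 at 0 mg/kg, against a median gene of 6.71. Aqp2, the water channel of the collecting duct, averaged 10.15 at 500 mg/kg and 10.22 at 0 mg/kg. The 24 kidney arrays had medians of 6.62 to 6.77 over the 14217 genes, each read from 1 probe set, and their pairwise correlations across genes lay between 0.988 and 0.996. Fat tissue set 1 array apart. Adipoq, the adipocyte hormone adiponectin, read 7.34, 5.17 and 5.08 in replicates 1, 2 and 3 at 500 mg/kg, against 5.34, 5.29, 5.99, 6.67 and 4.95 at 0 mg/kg, and Ucp1, the uncoupling protein of brown fat, read 10.51, 4.45 and 4.43 at 500 mg/kg, against 4.65, 4.81, 4.42, 6.90 and 4.31 at 0 mg/kg. Replicate 1 at 500 mg/kg was therefore the highest of the 8 arrays in both, and replicate 4 was the highest at 0 mg/kg. The main list counts at 500 mg/kg are also given without the kidney arrays high in white adipocyte markers, which among these 8 are those 2 arrays, or without the kidney arrays high in Adipoq, Fabp4 and Cfd, which also leaves out replicate 3 at 0 mg/kg.

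Transcripts of cell division read lower at 500 mg/kg than with vehicle, and several enzymes of fatty acid oxidation and glutathione transfer, with the transferrin receptor, read higher. No single gene passed the test. With limma, fitted on the 24 kidney arrays with 1 mean per dose, 0 of 14217 genes (0.0%) had an adjusted p (Benjamini-Hochberg) under 0.05 at 500 against 0 mg/kg, and 0 had one when the 2 groups were fitted alone. The smallest adjusted p was 0.171, shared by Asf1b, Ect2, Cks2 and Aldh1l1. At an unadjusted p under 0.05 there were 722 genes (5.08%), of which 316 (2.22%) were higher and 406 (2.86%) lower at 500 mg/kg. A share of about 0.05 falls under that p when no gene differs, so the total was close to that level. With each array centred on its median the split was 400 higher and 315 lower, and without the arrays high in white adipocyte markers it was 403 higher and 519 lower. The 3 arrays at 500 mg/kg all lay above the 5 vehicle arrays for 249 genes (1.75%) and all below them for 362 genes (2.55%). With so few arrays some genes separate fully without any difference, so a lack of overlap alone does not mark a gene as changed. Words such as higher and lower below describe levels and unadjusted p-values, and no gene is called changed at this dose.

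Of 39 measured genes of mitosis, 29 were lower and 0 higher at an unadjusted p under 0.05, against 2.86% and 2.22% of all genes, and 38 of the 39 differences were negative. Of 27 measured genes of DNA replication, 12 were lower and 0 higher. The lists of fatty acid oxidation and PPAR alpha (11 higher and 1 lower of 36) and glutathione transferases (9 higher and 0 lower of 21) leaned the other way. Both leanings are counts without a test of the list.

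**Figure D1:**
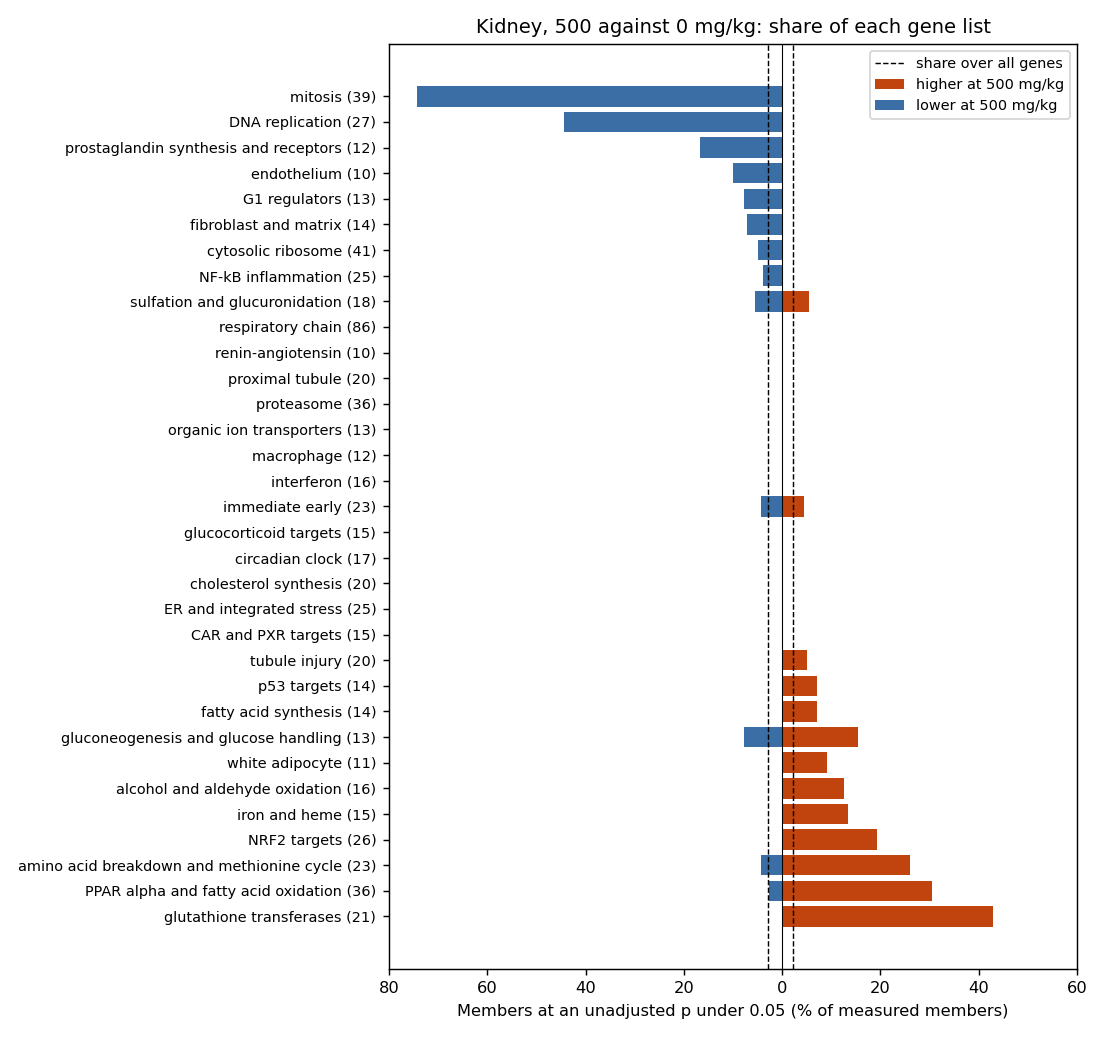
Share of each gene list with at least 10 measured members (number in brackets) that had an unadjusted limma p under 0.05, with members higher at 500 than at 0 mg/kg to the right and lower members to the left of 0, in percent of measured members. Dashed lines give the shares over all genes (2.22% higher, 2.86% lower). The mitosis list stands at 29 of 39 lower and the glutathione transferases at 9 of 21 higher.

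The promoters of Ect2, Cks2, Cdkn3 and Ccnb2, genes of the mitosis list with low p-values, share short stretches of letters. They are shown because the proteins of the MuvB complex are known to bind the CHR element, and NF-Y the CCAAT box, at promoters of cell-division genes. Each is a window of 300 bases over the RefSeq start (GRCr8), 5′ to 3′ on the gene's strand, and capitals mark TTTGAA (CHR) or CCAAT or their reverse complements. Ect2 lies at chr2:111966577-111966876 (minus strand), Cks2 at chr17:13727470-13727769 (minus), Cdkn3 at chr15:22502136-22502435 (plus) and Ccnb2 at chr8:79981609-79981908 (minus).
Ect2: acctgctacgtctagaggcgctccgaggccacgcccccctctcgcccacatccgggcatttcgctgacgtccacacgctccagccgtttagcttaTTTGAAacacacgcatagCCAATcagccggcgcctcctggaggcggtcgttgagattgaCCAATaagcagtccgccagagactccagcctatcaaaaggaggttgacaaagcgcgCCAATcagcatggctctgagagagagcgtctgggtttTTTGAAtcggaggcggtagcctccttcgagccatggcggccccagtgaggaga
Cks2: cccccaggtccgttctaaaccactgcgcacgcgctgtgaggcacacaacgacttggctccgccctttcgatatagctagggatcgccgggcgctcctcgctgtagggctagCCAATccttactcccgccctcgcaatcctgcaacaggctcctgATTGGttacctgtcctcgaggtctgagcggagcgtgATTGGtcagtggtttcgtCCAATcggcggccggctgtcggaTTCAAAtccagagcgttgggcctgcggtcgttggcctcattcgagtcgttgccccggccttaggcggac
Cdkn3: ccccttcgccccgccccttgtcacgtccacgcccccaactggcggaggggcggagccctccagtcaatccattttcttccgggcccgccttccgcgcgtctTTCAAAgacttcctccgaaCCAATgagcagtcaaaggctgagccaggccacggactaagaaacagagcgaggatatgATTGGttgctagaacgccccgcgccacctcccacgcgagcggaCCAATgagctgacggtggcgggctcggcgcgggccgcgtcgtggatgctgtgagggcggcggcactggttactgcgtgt
Ccnb2: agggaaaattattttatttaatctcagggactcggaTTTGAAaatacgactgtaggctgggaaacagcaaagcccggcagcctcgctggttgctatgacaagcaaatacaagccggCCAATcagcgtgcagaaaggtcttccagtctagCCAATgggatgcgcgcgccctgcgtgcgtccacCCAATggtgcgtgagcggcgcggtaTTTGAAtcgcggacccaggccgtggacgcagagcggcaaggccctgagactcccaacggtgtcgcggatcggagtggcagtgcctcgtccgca
Ect2 and Ccnb2 each held 2 CHR letters and 3 CCAAT letters, Cdkn3 held 1 and 3, and Cks2 held 1 and 4, with no overlap of the motifs. CHR letters stood in 23 of the 33 mitosis promoters found in the table (69.7%), against 18.1% of all 27457 promoters and 12.3% of the 11734 on the array. CCAAT stood in 26 of 33 (78.8%), against 37.7% of all promoters, and both stood in 20 of 33 (60.6%), against 7.25%. A match to letters is a description and says nothing about binding.

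Ect2, the exchange factor that switches on RhoA at the cleavage furrow, read 6.74, 6.52 and 6.88 at 500 mg/kg, against 7.37, 8.01, 7.41, 7.51 and 7.15 at 0 mg/kg. Its difference was -0.78 (SE 0.15) on the log2 scale, with an adjusted p of 0.171 by limma, and all 3 arrays at 500 mg/kg lay below all 5 vehicle arrays. Cks2, a small partner of cyclin-dependent kinases, read 6.99, 6.52 and 6.73 at 500 mg/kg, against 7.45, 8.08, 7.47, 7.67 and 7.24 at 0 mg/kg, a difference of -0.84 (SE 0.16). Cdkn3, a phosphatase that acts on these kinases, differed by -1.28 (95% interval -1.84 to -0.71), a level 2.43 times as high at 0 as at 500 mg/kg. Its arrays read 6.21, 5.64 and 5.98 at 500 mg/kg, against 6.92, 7.70, 7.35, 7.10 and 7.03 at 0 mg/kg, with no overlap. In each of these 3 genes replicate 2 was the lowest array at 500 mg/kg and replicate 2 the highest at 0 mg/kg.

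Cyclins and their kinase also read lower in all 3 arrays at 500 mg/kg. Ccnb2, cyclin B2, read 5.86, 5.35 and 5.85 at 500 mg/kg, against 6.77, 6.66, 6.69, 6.80 and 6.33 at 0 mg/kg, a difference of -0.96 (SE 0.21). Ccna2, cyclin A2, read 4.62, 4.04 and 5.02 at 500 mg/kg, against 5.12, 6.16, 5.90, 5.79 and 5.27 at 0 mg/kg, a difference of -1.08 (SE 0.24). Cdk1, the kinase that drives entry into mitosis, read 6.48, 6.28 and 6.68 at 500 mg/kg, against 7.10, 7.81, 7.53, 7.28 and 6.99 at 0 mg/kg. In none of the 3 did the groups overlap, and the adjusted p by limma was 0.195, 0.195 and 0.293 in that order. Mki67, the chromosome-coating protein used as a marker of dividing cells, averaged 5.12 ± 0.21 at 500 mg/kg and 5.96 ± 0.19 at 0 mg/kg (SD, 3 and 5 arrays). Ccnb1, cyclin B1, differed by -0.66 and Foxm1, the transcription factor of mitotic genes, by -0.24.

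Genes of the spindle and of chromosome separation followed. Prc1, which bundles the microtubules between separating chromosomes, differed by -0.89 (SE 0.20) and its arrays did not overlap. Kif2c and Kif20a, spindle motors, differed by -0.54 and -0.76, Hmmr, a spindle protein, by -0.82, and Top2a, the topoisomerase that untangles chromosomes, by -0.69. Pttg1, the securin that delays the separation of sister chromatids, differed by -0.52, and Cdca3, a regulator of entry into mitosis, by -0.69. Mad2l1 and Bub1b of the spindle checkpoint differed by -0.43 and -0.29. The 1 positive member was Melk, a kinase, at 0.59, with overlapping arrays. Smc2, a condensin subunit that was not on the list, differed by -0.45. Over the list the median difference was -0.53, against -0.004 over all genes, and 26 of 39 members had no overlap, all lower, against 2.55% of all genes. Only 10 of the 39 reached the median level of kidney genes, so most of these genes were measured at low signal, where the share of background is unknown. The count of lower members was 27 without replicate 1 at 500 mg/kg, 24 without replicate 2, 29 without the kidney arrays high in white adipocyte markers and 27 without those high in Adipoq, Fabp4 and Cfd.

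**Figure D2:**
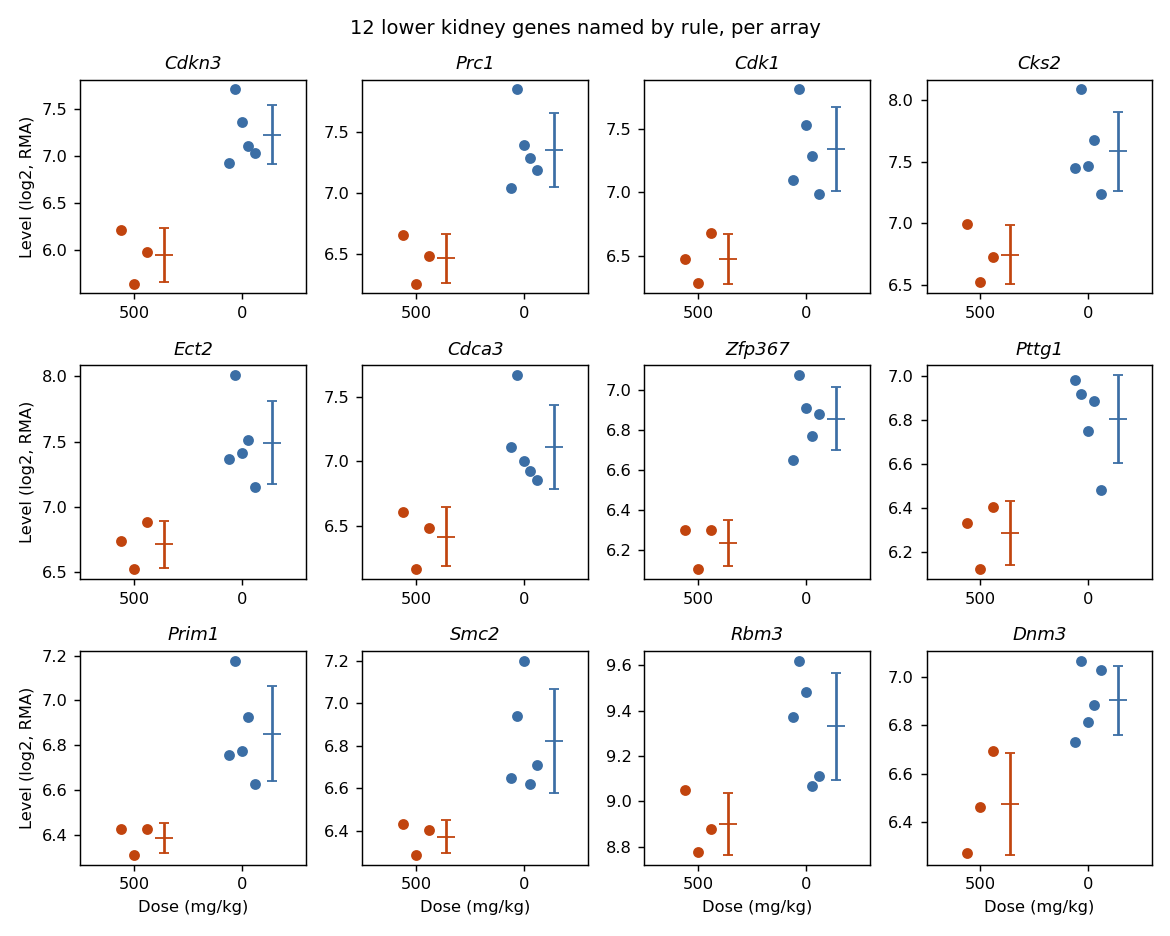
Log2 RMA level of the 12 genes with the lowest differences among those with no overlap, an unadjusted p under 0.01 and a mean at or above the median gene in at least 1 group, in the 3 kidney arrays at 500 mg/kg (left, orange) and the 5 at 0 mg/kg (right, blue), with mean and SD beside the points; each panel has its own scale. All 3 arrays at 500 mg/kg lie below all 5 vehicle arrays in every panel, which the rule for naming required.

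The genes that copy DNA showed smaller differences. Mcm6, a subunit of the replicative helicase, read 5.73, 5.84 and 5.70 at 500 mg/kg, against 6.05, 6.46, 6.36, 6.30 and 6.27 at 0 mg/kg, a difference of -0.53 (SE 0.12). Mcm7 and Mcm4 of the same helicase differed by -0.34 and -0.30, and Mcm5 by -0.45. Prim1, the primase that starts each new strand, differed by -0.46 (SE 0.11), and Pcna, the sliding clamp, averaged 9.17 ± 0.02 at 500 mg/kg and 9.38 ± 0.07 at 0 mg/kg (SD). Cdt1, which loads the helicase, differed by -0.42, and E2f1, a transcription factor of S-phase genes, by -0.39. None of these passed the adjusted test. Tyms and Fen1, which make thymidylate and trim Okazaki fragments, differed by -0.09 and -0.01 with overlapping arrays. The list's median was -0.19, and 11 of 27 members had no overlap, all lower, against 2.55% of all genes. The count of lower members at an unadjusted p under 0.05 was 10 without the kidney arrays high in white adipocyte markers. Of 13 regulators of G1, 1 was lower at an unadjusted p under 0.05 (Cdkn2c, an inhibitor of cyclin D kinases, at -0.19), against 2.86% of all genes. The other probe set of Cdkn2c gave 0.05. Ccnd1, cyclin D1, differed by -0.27 with overlapping arrays.

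Across the doses the mean of the mitosis list was 5.99 ± 0.18 at 0, 5.90 ± 0.16 at 1, 5.73 ± 0.16 at 10, 5.60 ± 0.20 at 100, 5.47 ± 0.17 at 500 and 5.04 ± 0.16 at 1000 mg/kg (SD over 3 to 5 arrays). The 3 arrays at 500 mg/kg, at 5.56, 5.28 and 5.57, lay below all 5 vehicle arrays, overlapped those at 100 mg/kg and lay above all 4 at 1000 mg/kg. The 1000 mg/kg comparison shares its vehicle arrays with that at 500 mg/kg, so their values are only set side by side. At 1000 against 0 mg/kg, 72 genes (0.506%) rose and 148 (1.04%) fell at an adjusted p under 0.05, and 32 of the 39 mitosis genes fell. Of the 29 that were lower at 500 mg/kg, 27 fell at 1000 mg/kg, and 38 of 39 had a lower difference there. Ect2 differed by -0.78 at 500 and by -1.36 at 1000 mg/kg, and Cdkn3 by -1.28 and -1.92. Set directly against each other, 1000 and 500 mg/kg differed in 0 genes by limma at an adjusted p under 0.05, with 276 higher (1.94%) and 551 lower (3.88%) at an unadjusted p under 0.05, among them 27 of the 39 mitosis genes, all lower. The smallest adjusted p was 0.420, for Tnfaip3, an inhibitor of NF-kB signalling that read lower at 1000 mg/kg. Among genes at or above the median level, those with the smallest p were Rpusd3, Ppt2 and Acsl3 (higher) and Adam17, Tmem181 and Maml1 (lower).

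**Figure D3:**
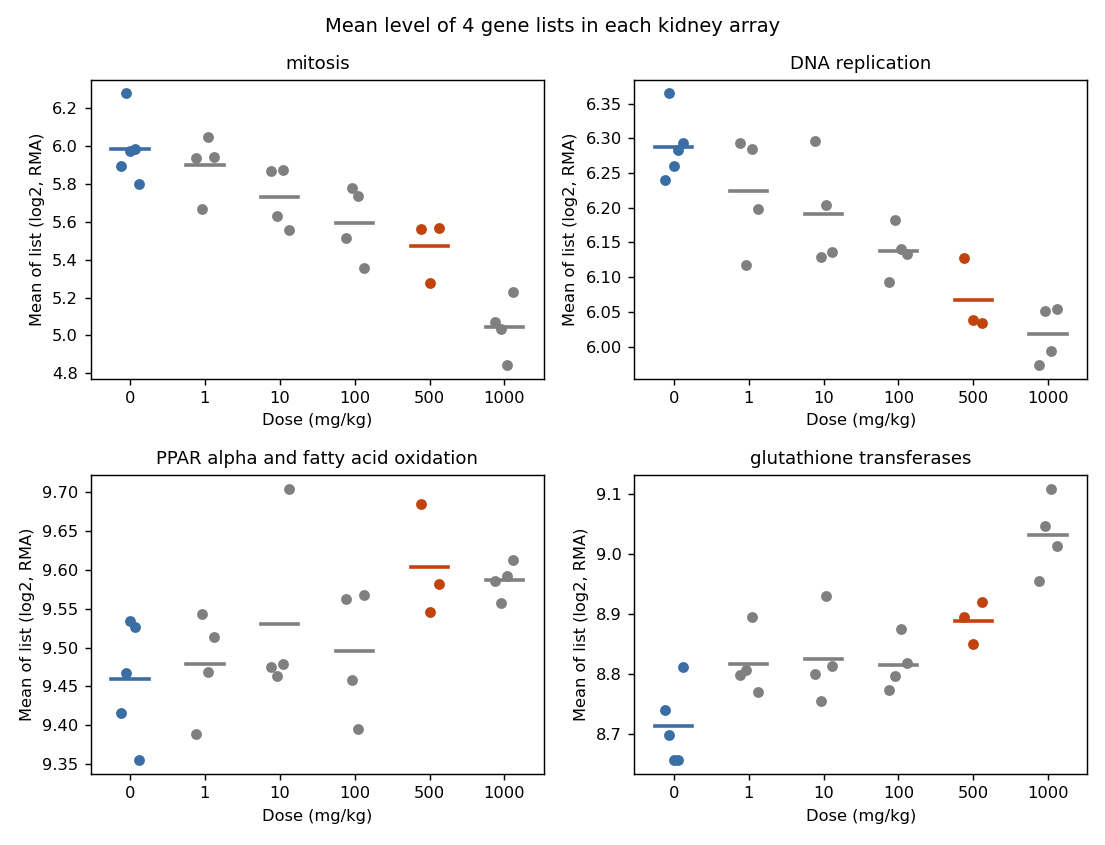
Mean log2 level of 4 gene lists in each kidney array, by dose from 0 to 1000 mg/kg; points are arrays, lines are group means, 0 mg/kg is blue and 500 mg/kg orange, and the dose axis is not to scale. The mitosis mean is 5.47 at 500 and 5.99 at 0 mg/kg, and the glutathione transferase mean is 8.89 at 500 and 8.71 at 0 mg/kg.

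Enzymes that burn fatty acids were higher by small amounts. Ehhadh, the bifunctional enzyme of peroxisomal oxidation, read 10.44, 10.52 and 10.54 at 500 mg/kg, against 10.09, 10.11, 10.09, 10.05 and 10.04 at 0 mg/kg. The difference was 0.42 (SE 0.09), a level 1.34 times as high at 500 mg/kg, with an adjusted p of 0.195 by limma and no overlap. Decr1, which prepares unsaturated fatty acids for oxidation, read 11.27, 11.33 and 11.27 at 500 mg/kg, against 10.81, 10.83, 11.00, 10.88 and 10.93 at 0 mg/kg, a difference of 0.40 (SE 0.10). Acadm, the medium-chain dehydrogenase, differed by 0.25, and Hadha and Hadhb, the trifunctional protein of mitochondria, by 0.24 and 0.27, each with no overlap. Cyp4a8, a fatty acid hydroxylase of rat kidney, read 12.38, 12.31 and 12.57 at 500 mg/kg, against 12.20, 11.79, 11.83, 12.01 and 12.20 at 0 mg/kg, a difference of 0.42 (SE 0.13). Cpt1a, the gate of mitochondrial uptake, and Cyp4a1, another target of PPAR alpha, differed by -0.05 and 0.07, and Ppara itself by -0.60 at a low level. The list's median was 0.15, and 10 of 36 members had no overlap, all higher, against 1.75% of all genes. Its mean was highest at 9.68 in replicate 1 at 500 mg/kg, the array high in Adipoq and Ucp1, and read 9.55 and 9.58 in the other arrays at that dose, against 9.36 to 9.53 at 0 mg/kg. The count of higher members was 9 without that replicate and 12 without the arrays high in Adipoq, Fabp4 and Cfd. The mean of the list differed from vehicle by 0.02, 0.07, 0.04, 0.14 and 0.13 at 1, 10, 100, 500 and 1000 mg/kg. Of the 36 members, 21 were lower at 1000 than at 500 mg/kg.

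**Figure D4:**
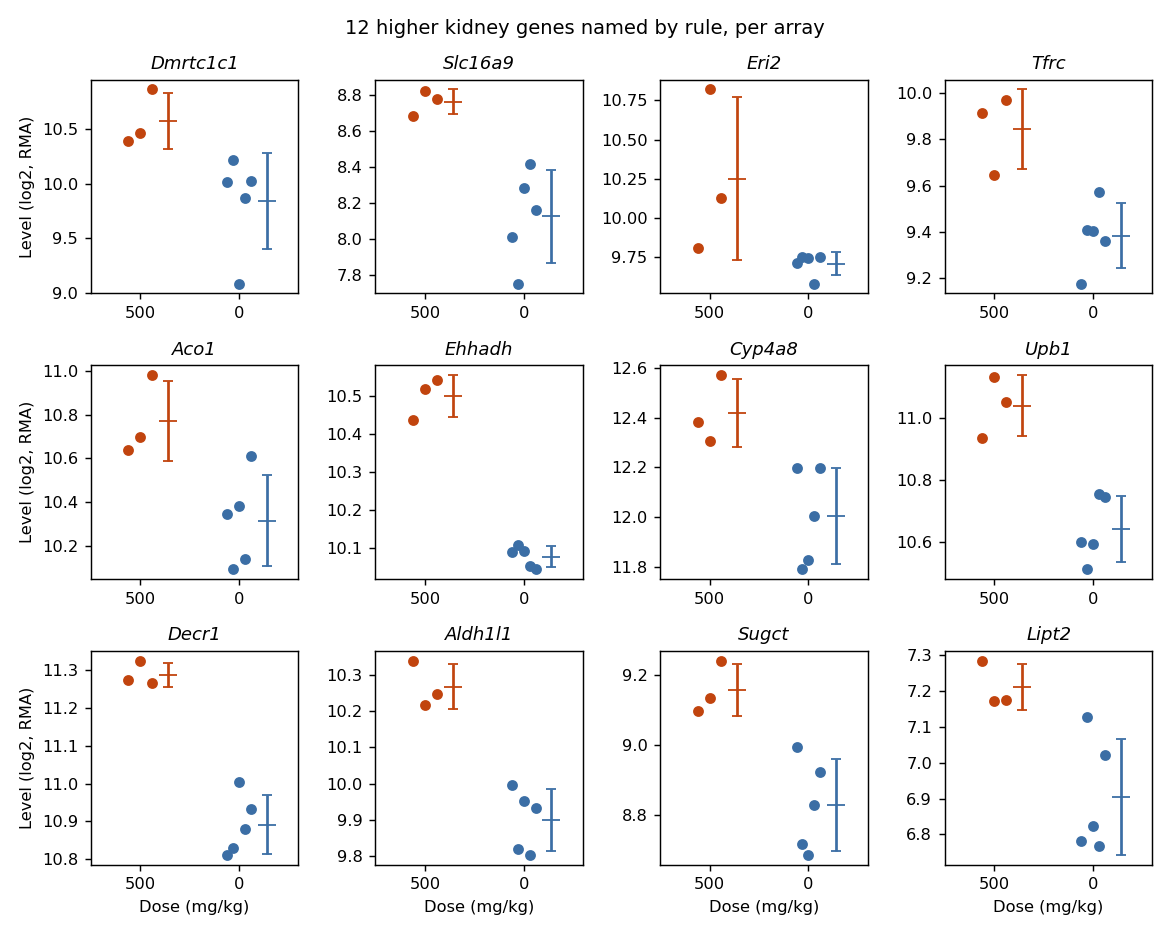
Log2 RMA level of the 12 genes with the highest differences under the same conditions, in the 3 kidney arrays at 500 mg/kg (left, orange) and the 5 at 0 mg/kg (right, blue), with mean and SD; each panel has its own scale. All 3 arrays at 500 mg/kg lie above all 5 vehicle arrays in every panel, which the rule for naming required.

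Of 15 genes of iron and heme handling, 2 were higher and 0 lower at an unadjusted p under 0.05, against 2.22% and 2.86% of all genes. The median was 0.06, and Tfrc was 1 of the 2 higher members. Arrays did not overlap for 2 higher members and 1 lower member, against 1.75% and 2.55% of all genes. Tfrc, the transferrin receptor that takes up iron, read 9.91, 9.65 and 9.97 at 500 mg/kg, against 9.18, 9.41, 9.40, 9.57 and 9.36 at 0 mg/kg, a difference of 0.46 (SE 0.09, adjusted p 0.195 by limma). Its second probe set differed by 0.61. Aco1, the cytosolic aconitase that doubles as an iron regulatory protein, was not on the list. It read 10.64, 10.70 and 10.98 at 500 mg/kg, against 10.35, 10.09, 10.38, 10.14 and 10.61 at 0 mg/kg. The groups did not overlap in either gene, and Slc40a1, the iron exporter, differed by -0.13. Aldh1l1, which oxidises formyl-tetrahydrofolate, read 10.34, 10.22 and 10.25 at 500 mg/kg, against 10.00, 9.82, 9.95, 9.80 and 9.93 at 0 mg/kg, a difference of 0.37 (SE 0.07). Upb1, the last enzyme of pyrimidine breakdown, differed by 0.40, and Sugct, of glutarate breakdown, by 0.33. Slc16a9, of the monocarboxylate transporter family, differed by 0.64, Dmrtc1c1 by 0.73, and Lipt2, an octanoyl transferase, by 0.31 while another probe set gave -0.06. Eri2, an exonuclease, differed by 0.54, with 10.82 in replicate 2 at 500 mg/kg, while its other probe set gave 0.02.

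Glutathione transferases were higher in part of the family. Gstm1 read 8.37, 8.15 and 8.73 at 500 mg/kg, against 7.78, 7.78, 8.18, 7.53 and 7.56 at 0 mg/kg, a difference of 0.65 (SE 0.19), with replicate 2 at 500 mg/kg just below replicate 3 at 0 mg/kg. Gsta3 differed by 0.52, Gstp1 by 0.38, Gstm2 by 0.33 and Gstz1 by 0.29. Gstt1 read 9.82, 9.83 and 9.83 at 500 mg/kg, against 9.54, 9.56, 9.46, 9.57 and 9.69 at 0 mg/kg, without overlap. Gsta4, Mgst3 and Gsto1 differed by 0.02, 0.02 and -0.13. The family's median was 0.17 and 3 of 21 members had no overlap, all higher, against 1.75% of all genes. The mean of the list differed from vehicle by 0.10, 0.11, 0.10, 0.18 and 0.32 at 1, 10, 100, 500 and 1000 mg/kg. The means at the lower doses were thus also above the vehicle mean. All these differences use the same 5 vehicle arrays and were not tested. The count of higher members was 5 without replicate 1 at 500 mg/kg, 4 without replicate 3 and 6 without the arrays high in Adipoq, Fabp4 and Cfd. Of 26 NRF2 targets 5 were higher, against 2.22% of all genes, and 3 of them were the transferases Gstm1, Gsta3 and Gstp1. The count was 2 without replicate 1 and 3 without replicate 3 at 500 mg/kg. The mean of the NRF2 list differed from vehicle by 0.08, 0.10, 0.05, 0.12 and 0.15 at 1, 10, 100, 500 and 1000 mg/kg. Nqo1 and Gclc, a quinone reductase and the enzyme that limits glutathione synthesis, differed by 0.18 and 0.24 with overlapping arrays, and Hmox1, heme oxygenase, by -0.09.

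Amino acid breakdown and the methionine cycle held 6 higher members and 1 lower of 23 at an unadjusted p under 0.05, against 2.22% and 2.86% of all genes. Bhmt, which remakes methionine from betaine, differed by 0.58, Ahcy, which splits adenosylhomocysteine, by 0.31, Hgd, of tyrosine breakdown, by 0.28 and Dmgdh by 0.27. Gatm, the first enzyme of creatine synthesis, differed by -0.19. The count of higher members was 2 without replicate 2 at 0 mg/kg, 3 without the arrays high in Adipoq, Fabp4 and Cfd, and 0 without replicate 3 at 500 mg/kg. The mean of this list differed from vehicle by 0.10, 0.14, 0.09, 0.18 and 0.31 at 1, 10, 100, 500 and 1000 mg/kg.

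The proximal tubule (20 genes), thick ascending limb (8), podocyte (8), intercalated cell (6) and macrophage (12) lists held 0 members at an unadjusted p under 0.05, as did the cholesterol synthesis, respiratory chain, interferon, proteasome and ER stress lists. Positive differences numbered 13 of 20, 8 of 8, 3 of 8, 5 of 6 and 5 of 12 in these cell lists, in that order. Over all genes 2.22% were higher and 2.86% lower at that p, and 7350 of 14217 differences were negative. Of 6 distal convoluted tubule genes 1 was lower, Calb1, a calcium-binding protein, at -0.45, and 5 had negative differences, with a median of -0.17. The mean of this list differed from vehicle by -0.10, -0.15, -0.20, -0.15 and -0.19 at 1, 10, 100, 500 and 1000 mg/kg. Of 9 principal cell genes 1 was lower, Scnn1b, a sodium channel subunit, at -0.24, and 8 had negative differences, with a median of -0.17. Among 20 genes of tubule injury 1 was higher, Clu at 0.30, the secreted chaperone clusterin. Ptgs2, the inducible cyclooxygenase, read 5.82, 5.62 and 6.17 at 500 mg/kg, against 5.74, 6.47, 7.12, 6.49 and 7.06 at 0 mg/kg, a difference of -0.70, with overlap. Of 10 endothelium genes 8 had negative differences, with a median of -0.05, and 1 was lower at an unadjusted p under 0.05, Vwf, the clotting factor carrier, at -0.77. Of 14 genes of fibroblasts and matrix 13 had negative differences, with a median of -0.19, and 1 was lower, Mfap4, a matrix protein, at -0.75. The fibroblast median was -0.41 at 1000 mg/kg, and the part of these cells in the lower mitosis levels was not tested. Of 41 cytosolic ribosome genes 37 had negative differences, with a median of -0.05. At 1000 against 0 mg/kg the median of this list was 0.04, and 2 of the 41 were lower at 1000 than at 500 mg/kg.

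The fat markers varied widely within the 500 mg/kg group. Fabp4, an adipocyte fatty acid carrier, read 10.69, 5.88 and 6.68 in its 3 arrays, against 6.87, 6.91, 8.01, 9.15 and 6.83 at 0 mg/kg. Cfd, adipsin, read 8.17, 4.32 and 3.54 at 500 mg/kg, against 4.21, 3.88, 6.37, 7.05 and 3.61 at 0 mg/kg. Of 11 white adipocyte genes, 1 was higher at an unadjusted p under 0.05, Cidec at 0.63, against 2.22% of all genes. Of 8 brown adipocyte genes 0 were, with Ucp1 at 1.44 (SE 1.37). The mean of the brown list was 7.08, 5.08 and 5.10 at 500 mg/kg. In Adipoq, Fabp4, Cfd and Ucp1 replicates 2 and 3 at 500 mg/kg lay within or below the range of the vehicle arrays. In the mitosis list replicate 1 read 5.56, beside 5.57 in replicate 3. With white adipocyte markers as a covariate 0 genes passed the adjusted test and 29 mitosis genes were lower at an unadjusted p under 0.05.

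**Figure D5:**
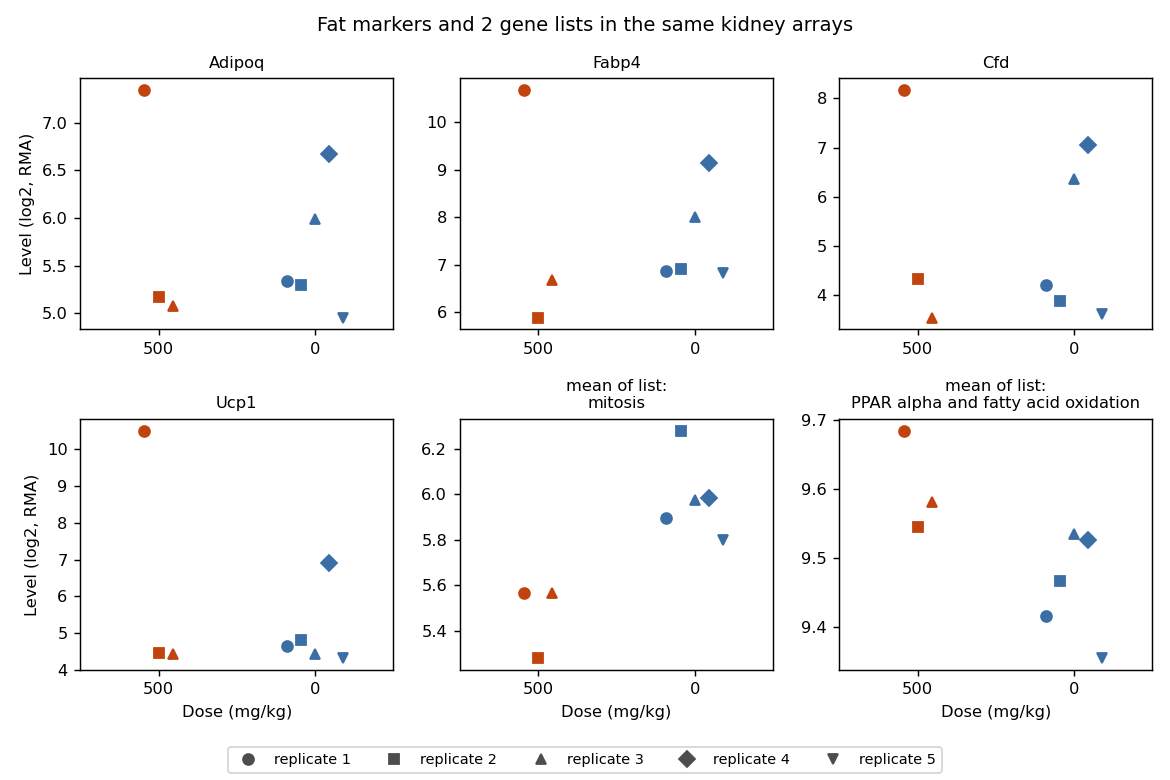
Log2 RMA level of the fat genes Adipoq, Fabp4, Cfd and Ucp1, and the mean of the mitosis and the fatty acid oxidation lists, in the same 3 arrays at 500 mg/kg (left, orange) and 5 at 0 mg/kg (right, blue), with a symbol per replicate number. Replicate 1 at 500 mg/kg has 10.51 for Ucp1, while replicates 2 and 3 have 4.45 and 4.43.

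The change in kidney was set against the change in liver at the same dose in 1 fit over both organs. The difference of the changes passed the test in 2 of 14217 genes (0.0141%), and 310 (2.18%) and 677 (4.76%) were higher and lower at an unadjusted p under 0.05. Cks2 differed between doses by -0.84 in kidney and 0.33 in liver, where it read 7.99, 7.85, 8.61 and 8.35 at 500 mg/kg, against 7.85, 7.96, 7.75, 7.90 and 7.90 at 0 mg/kg. The difference was -1.17 (SE 0.22, adjusted p 0.0370 by limma). Gstt3, a theta-class transferase, differed by 0.24 in kidney, where it read 11.71, 11.63 and 11.76 at 500 mg/kg, against 11.41, 11.34, 11.44, 11.45 and 11.63 at 0 mg/kg. In liver it read 10.17, 10.38, 10.17 and 10.62 at 500 mg/kg, against 8.94, 9.30, 9.23, 8.83 and 8.99 at 0 mg/kg, a rise of 1.28. The difference was -1.03 (SE 0.18, adjusted p 0.0140 by limma). Both calls were lost without replicate 2 of kidney at 500 mg/kg, without replicate 4 of liver at either dose, without the kidney arrays high in fat markers, with arrays centred on their medians and with the 4 groups fitted alone. Over the 30 alternatives the difference stayed between -1.30 and -1.03 for Cks2 and between -1.09 and -0.94 for Gstt3. The mitosis list had a median difference of -0.53 in kidney and 0.06 in liver, where 1 of its 39 genes was lower and 1 higher at an unadjusted p under 0.05, against 3.24% and 7.48% of all genes.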

How the data were processed

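Total RNA of 1 organ was hybridized to 1 Affymetrix rat expression array. The deposited log2 values per probe set were made by the authors with RMA, per the submitters' processing notes; its version and whether organs were normalized together are not given in the sources used here. Probe sets were named from the platform annotation, updated through Entrez identifiers (20758) or accessions (2): 20826 of 31099 had 1 symbol, 436 several, 9780 none, and 57 were controls. Each gene was read from 1 probe set, the brightest on average over all 49 arrays, giving 14217 genes. limma 3.58.1 (R 4.3.3) fitted 1 mean per dose on the kidney arrays, with p-values adjusted over all genes. On simulated data for 500 against 0 mg/kg, 84% of genes changed 1.5-fold and 96% of those changed 2-fold were recovered, with 10 of 14017 unchanged genes called. The simulation drew noise independently for each gene and changed 200 genes by 1.5- to 4-fold. The shares depend on these settings and do not show that real changes of such sizes would be called. In the real data the Cdkn3 difference of -1.28 had an adjusted p of 0.195 by limma.

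Genes with no overlap of arrays, an unadjusted p under 0.01 and a mean at or above the median level in a group were eligible. Of these, the 12 with the largest positive and the 12 with the largest negative differences were named. List members were named in part from the 5 of each list with the smallest p, not all of which are given. For the other 2 comparisons the called genes or the 3 smallest p each way were named. Further list members were picked with their values in view. The members and lists were chosen with earlier results of these data known. Alternatives changed the probe set rule, low-level filter, normalization, moderation, array weights, replicate block, fat markers and single arrays. Array number limits the precision. No slide or scan date was used.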

Additional observations from a re-analysis of the deposited data

Results flagged for a closer look

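Values of named genes and means of the main and white adipocyte lists were examined, 80 sets from groups of 4 or 5 arrays. The 3 kidneys at 500 mg/kg are too few for this. Of the 80 sets, 3 held an array far from the others, where chance gives about 1 in 20. Eri2 read 9.58 in replicate 4 at 0 mg/kg, with the other vehicle kidneys at 9.71 to 9.75. Cdkn3 read 4.68 in replicate 3 at 1000 mg/kg, with the others at 5.50 to 5.53. Prim1 read 6.69 in replicate 1 at 1000 mg/kg, with the others at 6.32 to 6.38. The change at 500 mg/kg differed between kidney and liver, by the test of the difference, for Cks2 (-1.17) and Gstt3 (-1.03).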

How the results depend on the processing

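At 500 against 0 mg/kg, 0 genes passed the adjusted test in each of the 20 alternatives. All 473 values of the 24 genes named for that comparison kept their sign. The rule for naming required no overlap of arrays, so leaving out 1 array could not reverse a sign. The kept signs are therefore no separate check of these genes. With brighter genes only, 198 genes were higher and 161 lower at an unadjusted p under 0.05, with 5 mitosis and 4 DNA replication genes lower, since fewer members were tested (7 and 9). The higher genes were 485 with array weights and 484 without kidney arrays high in Adipoq, Fabp4 and Cfd, a setting chosen after seeing the data, under which 3 amino acid genes were higher; the cause was not tested. Leaving out 1 array gave 4 to 10 glutathione transferases, 0 to 8 amino acid genes and 2 to 6 NRF2 targets higher. At 1000 against 500 mg/kg it gave 0 to 1 genes, with 1 (Armcx2) without replicate 4 at 1000 mg/kg. For kidney against liver, the 2 calls became 1 with quantile normalization, 0 with centred arrays, 0 with the groups alone, and 0 without kidney arrays high in white adipocyte markers or in Adipoq, Fabp4 and Cfd. Leaving out 1 array gave 0 to 3. Cks2 lost its call in 17 of 30 alternatives and Gstt3 in 7. Arrays were also correlated across genes after the mean of the group was subtracted from each gene. On these deviations, not on the levels, same-numbered kidney arrays at 500 and 0 mg/kg had r of 0.137, -0.084 and -0.157. Between the organs r was 0.063 to 0.229 at 0 mg/kg, where all 5 were above those with other numbers, and 0.115, 0.113 and -0.018 at 500 mg/kg, so not every pair passed 0.1; this is a hint from the data, not the design. The replicate block gave 0 genes at 500 mg/kg and 1 for kidney against liver. Of 975 list medians, 55 moved by more than the spread between replicates. Dim genes are limited by unknown background signal.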
